A study of Homo sapiens with 6 samples.

Results

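The cytochrome P450 genes examined here were the 50 rows, of 57773 in the gene table, whose symbol has the form of a P450 gene name and which are neither pseudogenes nor 1 of 5 genes of bile acid and sterol synthesis (CYP7A1, CYP7B1, CYP8B1, CYP27A1 and CYP51A1). The choice rested on the symbols and used no measured value, but it was made with earlier results of these data known. The RNA came from 6 cultures of HepG2, an established line from a human liver tumor kept below passage 20 and grown as a monolayer in MEM with 10% serum. Cells were moved to serum-free MEM for treatment, as the study's methods state. For 3 h, 3 cultures were given 5 ng/mL of recombinant human TGFβ1 and the other 3 its vehicle. The comparison asks which genes respond early to TGFβ in these cells.

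P450 enzymes are heme proteins that insert an oxygen atom into a substrate, using electrons passed on by a reductase. Members of families 1 to 3 mostly clear drugs and other foreign compounds in the liver, members of family 4 hydroxylate fatty acids and eicosanoids, and most of the remaining families make or break down steroids, vitamin D and retinoids. Hepatocytes hold high levels of many of them, and hepatoma lines such as HepG2 are known for low levels of most drug-metabolizing members.

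The reads assigned to genes numbered 60815385 to 100099136 per culture, so 3 reads, taken here as the floor, correspond to 0.031 to 0.0487 CPM (reads scaled to library size) in a culture. Known TGFβ targets had the direction of the labels, with log2 fold changes of 4.30 for PMEPA1, 2.45 for SKIL and 1.72 for SMAD7, each past an FDR of 0.05 and without overlap between the groups. The 8 hepatocyte markers summed to 7081 to 7844 RPKM (reads scaled to gene length and library size) in vehicle and to 6550 to 7751 in TGFβ. The 6 stellate cell or fibroblast markers summed to 11.78 to 12.82 and 12.3 to 13.74 RPKM, the 5 macrophage or leukocyte markers, of which MARCO was at 0, to at most 1.501 RPKM, and the 3 endothelial markers, of which KDR was at 0, to at most 0.02857 RPKM. Of the 12 tested markers, 0 passed an FDR of 0.05 with edgeR or DESeq2, and 2 stellate markers were higher at an unadjusted P below 0.05 (edgeR). With culture number as a block the stellate markers COL1A1 and PDGFRB were higher, with FDRs of 0.00806 and 7.25e-06, and the hepatocyte markers TTR and FGB were lower, with FDRs of 0.0495 and 0.0331 (edgeR). The part of these markers in the results was not tested.

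Of the 50 P450 genes, 28 had enough reads for the test across 22747 genes, 16 had between 1 and 59 reads over all 6 cultures and were not tested, and 6 had no read in any culture. Among the 28 tested genes, 4 rose with TGFβ and 0 fell at an FDR below 0.05 (edgeR quasi-likelihood test, Benjamini-Hochberg). These were CYP24A1, CYP2S1, CYP19A1 and CYP4F3, and they are 14.3% of the tested P450 genes, where 3.11% of all tested genes were called higher and 1.01% lower. At an unadjusted P below 0.05, 5 P450 genes were higher and 2 were lower, where 13.7% of all tested genes were past it in either direction, and DESeq2 called 4 higher and 0 lower. Cultures with the same number deviated together, and with the culture number as a block in the same test 5 P450 genes were higher and 3 lower, against 8.08% and 3.75% of all tested genes. The genes added by the block were CYP26B1, higher, and CYP3A5, CYP3A7 and CYP3A43, lower. The median log2 fold change of the 28 tested genes was -0.06, with a range from -0.84 to 1.72, and it was -0.01 over all tested genes. The groups did not overlap for 5 tested genes that were higher and 3 that were lower in TGFβ, where 10.4% and 8.23% of all tested genes did the same. Genes pass the filter on low reads more readily when they are high in either group, so these counts describe the tested genes and not the whole family. In RNA from whole cultures, fewer cells holding an RNA and less of it per cell cannot be told apart.

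**Figure D1:**
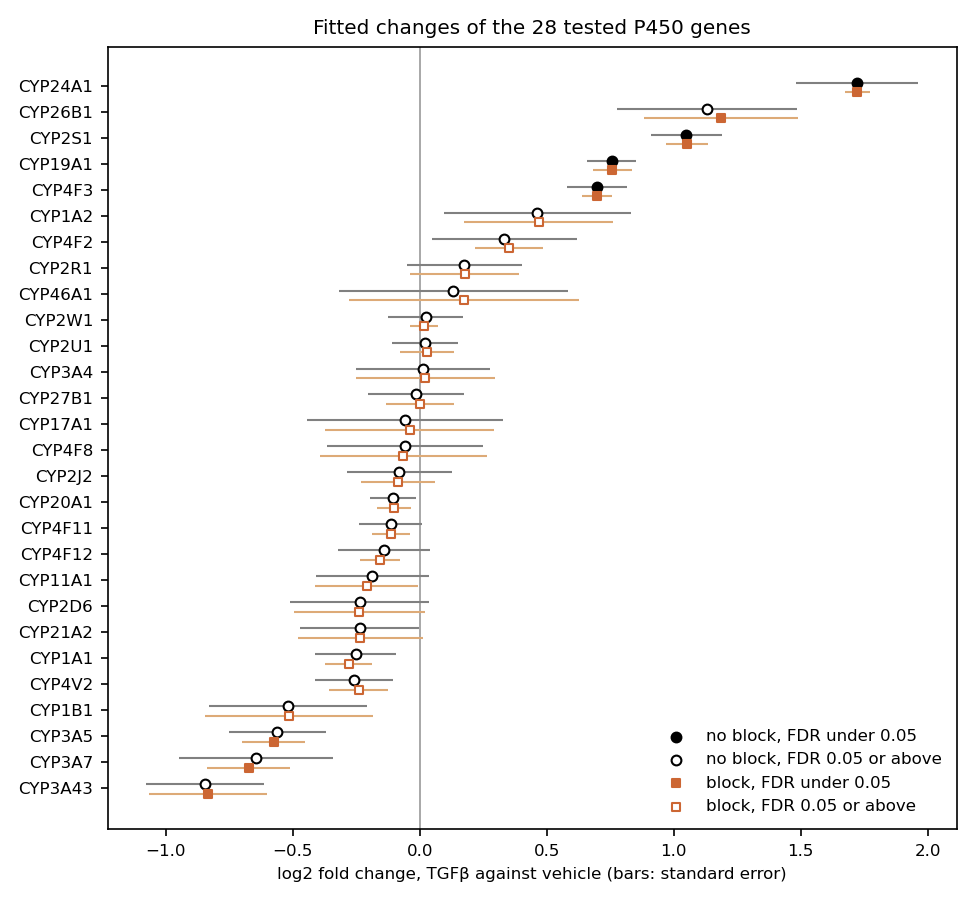
Log2 fold change of TGFβ against vehicle for each of the 28 tested P450 genes, from the edgeR fits without the block (circles) and with it (squares), with bars for the standard error and filled symbols for an FDR below 0.05. CYP24A1, at 1.72, lies farthest to the right, and CYP3A43, at -0.84, farthest to the left.

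CYP24A1, CYP2S1, CYP19A1 and CYP4F3 belong to different families and act on different substrates. CYP24A1 (ENSG00000019186, hg19 chr20:52769988-52790512) is the mitochondrial hydroxylase that inactivates calcitriol, the active form of vitamin D. Its normalized level was 77.6, 128 and 77.6 CPM in vehicle cultures 1, 2 and 3 and 253, 424 and 259 CPM in TGFβ cultures 1, 2 and 3. All 3 TGFβ cultures were above every vehicle culture, and culture 2 was the highest of each group. The mean rose from 94.5 ± 29.4 to 312 ± 97.3 CPM (SD, n = 3 each), a log2 fold change of 1.72 (SE 0.24, 3.3-fold, edgeR FDR = 0.00316). Within matched culture numbers the ratio was 3.26, 3.30 and 3.34, so the spread between cultures of a group was shared by their partners. The call was lost without vehicle culture 3 (log2 fold change between 1.42 and 2.00 over the fits that left out 1 culture, edgeR FDR = 0.0522 without vehicle culture 3) and without the filter on low reads (edgeR FDR = 0.16).

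CYP27B1, the enzyme that makes calcitriol, did not pass the test. It had 4.11, 2.76 and 2.87 CPM in vehicle and 3.54, 3.13 and 2.99 CPM in TGFβ, with a log2 fold change of -0.01 (SE 0.19, edgeR FDR = 0.985). Its row overlaps METTL1, which held 8766 reads in all. The ratio of CYP24A1 to CYP27B1 reads was 18.9, 46.5 and 27.0 in vehicle and 71.4, 135.4 and 86.5 in TGFβ, without overlap between the groups (difference of 1.71 on the log2 scale, two-sided exact permutation P = 0.1, 0.14 after adjustment over 7 ratios, 0.1 being the smallest value this design can give). CYP2R1, another vitamin D hydroxylase, had 0.555, 0.615 and 0.731 CPM in vehicle and 0.65, 0.708 and 0.782 CPM in TGFβ (log2 fold change 0.18, SE 0.23, edgeR FDR = 0.835). The receptor for calcitriol, VDR, had 1.86, 1.83 and 1.67 CPM in vehicle and 2.62, 3.84 and 3.22 CPM in TGFβ, all above vehicle. VDR rose by a log2 fold change of 0.85 (SE 0.18, edgeR FDR = 0.0309), and this call was lost in 5 of the 6 fits that left out 1 culture.

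**Figure D2:**
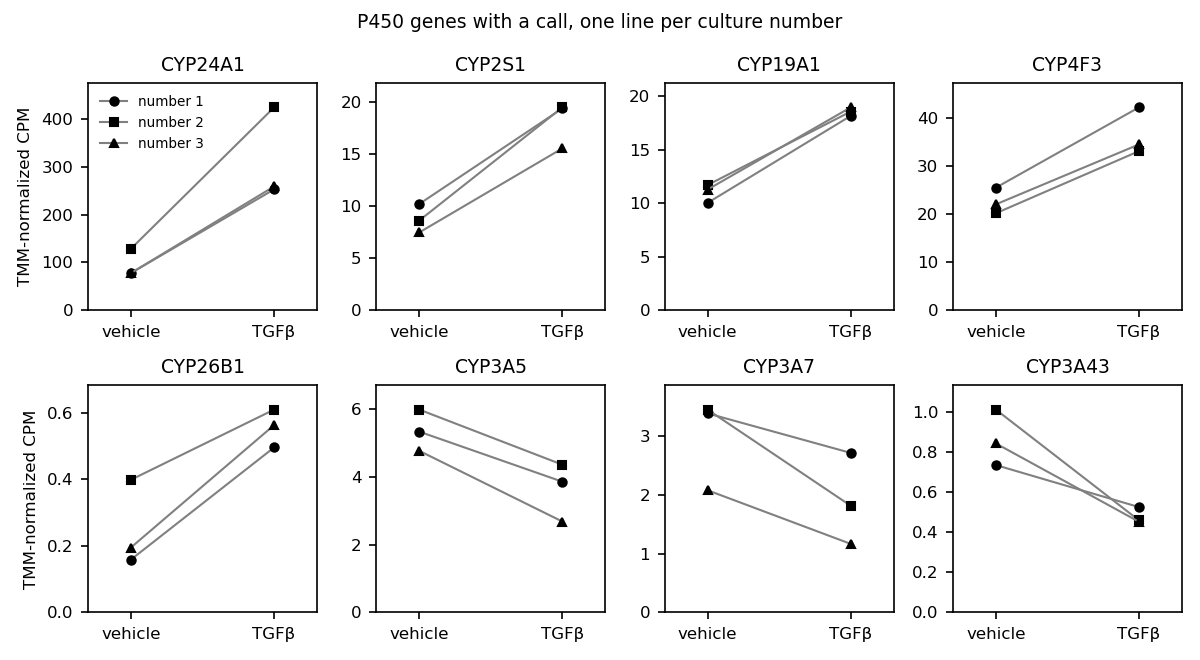
Normalized level in each culture, in CPM on linear axes from 0, of the P450 genes that passed an FDR of 0.05 with or without the culture number as a block, with lines joining vehicle and TGFβ cultures of the same number. All 3 lines of CYP24A1 rise, by ratios of 3.26 to 3.34, while the groups of CYP3A7 overlap although each line falls.

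CYP2S1 (ENSG00000167600, hg19 chr19:41698954-41713444) is a P450 found mainly outside the liver that is known as a target of the dioxin receptor. It had 10.2, 8.62 and 7.47 CPM in vehicle and 19.4, 19.5 and 15.6 CPM in TGFβ. No TGFβ culture came near a vehicle culture, and the ratio within culture numbers was 1.90, 2.26 and 2.08. CYP2S1 rose from 8.76 ± 1.37 to 18.2 ± 2.25 CPM (SD, n = 3 each), a log2 fold change of 1.05 (SE 0.14, 2.07-fold, edgeR FDR = 0.00241), and it passed in all 6 fits that left out 1 culture. CYP1A1, the best known target of the same receptor, did not pass the test.

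CYP19A1 (ENSG00000137869, hg19 chr15:51500254-51630807) encodes aromatase, which converts androgens to estrogens. It had 10.0, 11.7 and 11.3 CPM in vehicle and 18.2, 18.6 and 19.0 CPM in TGFβ. The 2 groups were far apart relative to their spread, which was small in TGFβ. CYP19A1 rose from 11.0 ± 0.867 to 18.6 ± 0.398 CPM (SD, n = 3 each), a log2 fold change of 0.76 (SE 0.10, 1.69-fold, edgeR FDR = 0.00183), and passed in all 6 fits that left out 1 culture. Overlapping genes within its row held at most 71 reads, against 7184 for CYP19A1. The other steroid-producing members were near the detection limit or did not pass. CYP11A1, which starts steroid synthesis from cholesterol, had a log2 fold change of -0.19 (SE 0.22, edgeR FDR = 0.822) and CYP17A1, which makes androgens, of -0.06 (SE 0.38, edgeR FDR = 0.971). CYP11B1 and CYP11B2, which finish cortisol and aldosterone, had no read.

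CYP4F3 (ENSG00000186529, hg19 chr19:15751707-15773635) hydroxylates leukotrienes and fatty acids and lies in a cluster with its closest relatives. It had 25.5, 20.2 and 22.1 CPM in vehicle and 42.3, 33.2 and 34.6 CPM in TGFβ, without overlap. CYP4F3 rose from 22.6 ± 2.71 to 36.7 ± 4.91 CPM (SD, n = 3 each), a log2 fold change of 0.70 (SE 0.12, 1.62-fold, edgeR FDR = 0.00876), with ratios of 1.66, 1.64 and 1.57 within culture numbers. The call was lost without vehicle culture 3 (edgeR FDR = 0.0532). Of the 51-base words in its exons, 6.86% also occur in CYP4F2, so a small part of its reads cannot be placed with certainty.

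The neighbors of CYP4F3 did not pass. CYP4F11 had 15.6, 12.5 and 15.1 CPM in vehicle and 14.9, 11.7 and 13.4 CPM in TGFβ (log2 fold change -0.11, SE 0.12, edgeR FDR = 0.803). CYP4F12 had 17.5, 12.6 and 15.2 CPM in vehicle and 17.2, 10.4 and 13.5 CPM in TGFβ (log2 fold change -0.14, SE 0.18, edgeR FDR = 0.833). Both genes hydroxylate fatty acids, as does CYP4F2, which also takes part in vitamin K breakdown. CYP4F2 had 3.35, 1.89 and 4.0 CPM in vehicle and 4.52, 2.66 and 4.42 CPM in TGFβ (log2 fold change 0.33, SE 0.29, edgeR FDR = 0.734). Reads of CYP4F3 per read of CYP4F11 were 1.63, 1.61 and 1.46 in vehicle and 2.84, 2.83 and 2.59 in TGFβ, without overlap (two-sided exact permutation P = 0.1, 0.14 after adjustment over 7 ratios). Against CYP4F2 the ratio was 7.62, 10.7 and 5.52 in vehicle and 9.35, 12.5 and 7.82 in TGFβ, with overlap (two-sided exact permutation P = 0.4).

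The promoters of the called genes that RefSeq lists with a single start, CYP2S1 and CYP4F3, are shown for the letters they hold. Each is the 250 bases before the start on GRCh38.p14, written in the direction of the gene, CYP2S1 from chr19:41192969-41193218 (plus strand) and CYP4F3 from chr19:15641062-15641311 (plus strand). Capitals mark matches, on either strand, to the GC-rich SMAD site GGCGC, the nuclear receptor hexamer AGGTCA or the AP-1 motif TGANTCA.
CYP2S1: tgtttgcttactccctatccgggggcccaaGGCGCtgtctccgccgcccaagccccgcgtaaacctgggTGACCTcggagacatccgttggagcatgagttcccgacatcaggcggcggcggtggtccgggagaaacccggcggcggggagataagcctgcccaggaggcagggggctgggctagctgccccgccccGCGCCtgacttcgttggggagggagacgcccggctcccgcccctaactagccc
CYP4F3: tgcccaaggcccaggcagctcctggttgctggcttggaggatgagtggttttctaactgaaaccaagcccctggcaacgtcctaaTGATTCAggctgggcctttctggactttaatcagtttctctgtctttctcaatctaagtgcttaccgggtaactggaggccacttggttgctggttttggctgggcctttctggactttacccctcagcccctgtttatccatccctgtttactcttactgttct
The CYP2S1 window holds GGCGC on both strands and AGGTCA on the reverse strand, and the CYP4F3 window holds TGANTCA 165 bases before the start. TGANTCA also occurs in a window of CYP4F11, which did not pass, and in windows of CYP19A1, which did. GGCGC occurs in 44.5% of all 35116 promoter windows of this length, AGGTCA in 12.1% and TGANTCA in 6.57%. Windows were found for 37 of the 50 P450 genes, CYP24A1 not among them. Some genes had several starts, which gave 50 windows. Of these 50, 13 hold AGGTCA (26.0%), 17 hold the TATA box TATAAA (34.0%, against 10.7% of all windows), 14 hold GGCGC (28%), 18 hold the SMAD core CAGAC (36.0%, against 38.0%), 10 hold the xenobiotic response element core GCGTG (20.0%, against 32.2%) and 4 hold TGANTCA (8.0%). CYP19A1 has 7 windows, and a match to letters in any window is a description only.

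Families 1 to 3 held 23 P450 genes, of which 13 were tested and 2 had no read. Of those tested, 1 rose (CYP2S1) and 0 fell, against 3.11% and 1.01% of all tested genes. With the culture number as a block, 1 rose and 3 fell, against 8.08% and 3.75% of all tested genes. Their median log2 fold change was -0.08. Per length, CYP1A1 (hg19 chr15:75011883-75017951), which oxidizes polycyclic aromatic compounds and is induced through the dioxin receptor, was the most abundant P450 gene of the set in vehicle. It had 57.8, 68.3 and 68.5 RPKM in vehicle and 38.5, 60.9 and 59.5 RPKM in TGFβ, and the groups overlapped, with TGFβ culture 1 the lowest. The difference did not pass (log2 fold change -0.25, SE 0.16, edgeR FDR = 0.599). Reads of CYP2S1 per read of CYP1A1 were 0.042, 0.0312 and 0.0259 in vehicle and 0.119, 0.0774 and 0.059 in TGFβ, without overlap (two-sided exact permutation P = 0.1, 0.14 after adjustment over 7 ratios).

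CYP2W1, found mostly in tumors and fetal gut, came next in this group with 16.3, 12.8 and 12.8 RPKM in vehicle and 17.2, 12.7 and 11.7 RPKM in TGFβ (log2 fold change 0.02, SE 0.15, edgeR FDR = 0.97). The relatives of CYP1A1 were low. CYP1A2, a main caffeine-metabolizing enzyme of liver, had 14, 26 and 17 reads in vehicle and 22, 34 and 28 in TGFβ (log2 fold change 0.46, SE 0.37, edgeR FDR = 0.707). CYP1B1, which acts on estrogens and polycyclic compounds, had 35, 21 and 23 reads in vehicle and 19, 23 and 17 in TGFβ (log2 fold change -0.52, SE 0.31, edgeR FDR = 0.572). CYP2J2, which epoxidizes arachidonic acid, and CYP2U1, a fatty acid hydroxylase, had log2 fold changes of -0.08 (edgeR FDR = 0.924) and 0.02 (edgeR FDR = 0.97). CYP2D6, which handles many drugs of the nervous system, had one of -0.24 (edgeR FDR = 0.818). However, 50.4% of its 51-base words also occur in other reference genes with P450 names, mainly in CYP2D7.

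**Figure D3:**
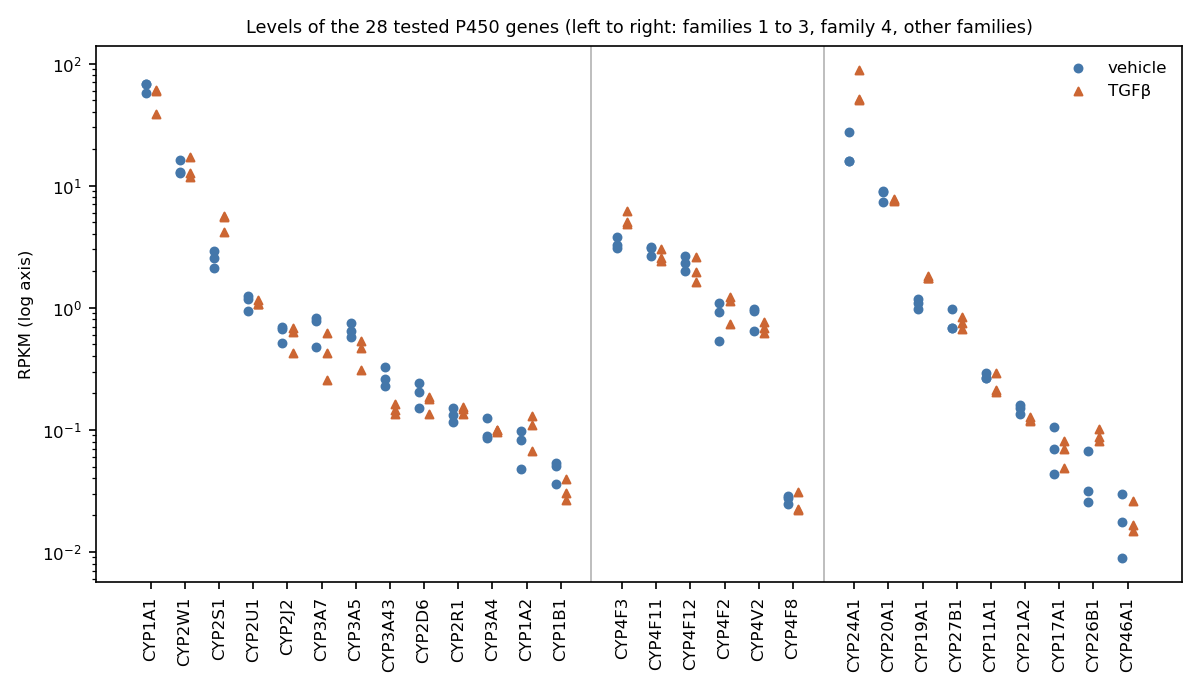
Deposited RPKM of the 28 tested P450 genes in each culture, on a log axis and by family group, with vehicle and TGFβ cultures marked apart. CYP1A1 and CYP24A1 stand above the rest, and CYP24A1 is at 15.9 to 27.5 RPKM in vehicle and at 50.5 to 88.6 RPKM in TGFβ.

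The CYP3A genes, which lie side by side on chromosome 7 and together metabolize a large share of drugs in adult and fetal liver, did not pass without the block. CYP3A5 (hg19 chr7:99245817-99277621) had 5.32, 5.97 and 4.76 CPM in vehicle and 3.85, 4.35 and 2.68 CPM in TGFβ. All 3 TGFβ cultures were below every vehicle culture, with ratios of 0.723, 0.728 and 0.562 within culture numbers. The log2 fold change was -0.56 (SE 0.19, edgeR FDR = 0.185), and with the block it was -0.58 (edgeR FDR = 0.0103). CYP3A43 (hg19 chr7:99425636-99463718) had 0.736, 1.01 and 0.845 CPM in vehicle and 0.526, 0.46 and 0.453 CPM in TGFβ, also without overlap. Its log2 fold change was -0.84 (SE 0.23, edgeR FDR = 0.0873), and with the block -0.83 (edgeR FDR = 0.0386), on 33 to 84 reads per culture.

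CYP3A7 (hg19 chr7:99302660-99332819), the main form of fetal liver, had 3.39, 3.45 and 2.08 CPM in vehicle and 2.71, 1.81 and 1.17 CPM in TGFβ. Its groups overlapped, and its ratio within culture numbers was 0.801, 0.526 and 0.561. The log2 fold change was -0.64 (SE 0.30, edgeR FDR = 0.405), and with the block -0.67 (edgeR FDR = 0.0191). Of its 51-base words, 41.8% also occur in reference transcripts of the fusion gene CYP3A7-CYP3A51P. The gene table has no row of that name. CYP3A4, the leading drug-metabolizing enzyme of adult liver, had only 29, 38 and 21 reads in vehicle and 36, 30 and 29 in TGFβ (log2 fold change 0.01, SE 0.26, edgeR FDR = 0.99). Reads of CYP3A5 per read of CYP3A4 were 16.2, 13.0 and 14 in vehicle and 10.4, 11.7 and 6.72 in TGFβ, without overlap (two-sided exact permutation P = 0.1, 0.14 after adjustment over 7 ratios). Reads of CYP3A7 per read of CYP3A4 overlapped between the groups (two-sided exact permutation P = 0.2).

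The promoters of the CYP3A genes are set side by side because these neighbors are close in sequence and 3 of the 4 passed with the block. Each is the 250 bases before the RefSeq start on GRCh38.p14 in the direction of the gene. CYP3A4 is from chr7:99784185-99784434 (minus strand), CYP3A5 from chr7:99679997-99680246 (minus strand), CYP3A7 from chr7:99735197-99735446 (minus strand) and CYP3A43 from chr7:99827763-99828012 (plus strand). Capitals mark AGGTCA and TATAAA.
CYP3A4: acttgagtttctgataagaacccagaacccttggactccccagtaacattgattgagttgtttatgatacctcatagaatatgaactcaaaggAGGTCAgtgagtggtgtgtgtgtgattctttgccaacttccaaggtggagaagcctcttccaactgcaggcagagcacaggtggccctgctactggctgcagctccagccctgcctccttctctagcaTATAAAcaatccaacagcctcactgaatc
CYP3A5: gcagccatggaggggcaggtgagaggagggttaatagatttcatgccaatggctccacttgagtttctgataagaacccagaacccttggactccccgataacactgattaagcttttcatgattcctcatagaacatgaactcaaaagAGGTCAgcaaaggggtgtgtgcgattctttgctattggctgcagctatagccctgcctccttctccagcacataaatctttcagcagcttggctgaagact
CYP3A7: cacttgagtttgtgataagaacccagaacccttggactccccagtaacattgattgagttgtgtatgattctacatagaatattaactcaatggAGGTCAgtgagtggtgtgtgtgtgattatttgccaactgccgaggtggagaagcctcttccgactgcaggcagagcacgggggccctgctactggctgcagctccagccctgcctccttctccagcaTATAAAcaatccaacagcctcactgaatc
CYP3A43: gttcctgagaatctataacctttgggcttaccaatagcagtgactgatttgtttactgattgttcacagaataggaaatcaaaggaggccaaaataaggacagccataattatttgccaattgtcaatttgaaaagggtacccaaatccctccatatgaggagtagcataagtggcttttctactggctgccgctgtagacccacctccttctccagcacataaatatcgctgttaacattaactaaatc
The windows of CYP3A4 and CYP3A7 are 94.8% identical over 249 aligned bases and hold AGGTCA and TATAAA at nearly the same places. The window of CYP3A5 is 84.4% identical to that of CYP3A4 over only 192 aligned bases and holds AGGTCA alone. The window of CYP3A43 is 70.9% identical to that of CYP3A4 over 237 aligned bases and holds neither.

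The members of family 2 that dominate drug clearance in normal liver were at or near 0. CYP2C8, which clears paclitaxel, had 9, 11 and 4 reads in vehicle and 2, 4 and 6 in TGFβ, and CYP2B6, which clears efavirenz, had 1, 5 and 3 and 3, 3 and 6. CYP2E1, which oxidizes ethanol, had 5, 0 and 3 reads in vehicle and 10, 2 and 3 in TGFβ, in a row that overlaps SPRN. CYP2A6, the nicotine-oxidizing enzyme, had 2 reads over all cultures. CYP2F1, CYP2C18 and CYP2C19 had at most 13 reads in a culture, and CYP2A7 and CYP2A13 had none. No change in these genes was detectable at this depth.

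Family 4 held 12 P450 genes, of which 6 were tested, CYP4F3 alone passed the test, and 1 had no read. The median log2 fold change was -0.09, and the block added no call. CYP4V2, a fatty acid hydroxylase expressed in many tissues, had 7.75, 11.2 and 11.3 CPM in vehicle and 8.26, 9.02 and 7.90 CPM in TGFβ (log2 fold change -0.26, SE 0.15, edgeR FDR = 0.562). CYP4F8, a prostaglandin hydroxylase, had a log2 fold change of -0.06 (SE 0.31, edgeR FDR = 0.965). The PPARα-induced fatty acid hydroxylase CYP4A11 had 1 read over all cultures, CYP4B1, CYP4F22, CYP4A22 and CYP4X1 had at most 6 in a culture, and CYP4Z1 had none.

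The remaining families held 15 P450 genes, of which 9 were tested and 3 had no read. Of those tested, 2 rose (CYP24A1 and CYP19A1) and 0 fell, against 3.11% and 1.01% of all tested genes. With the block 3 rose, with CYP26B1 added, against 8.08% of all tested genes. The median log2 fold change without the block was -0.01. CYP26B1 (hg19 chr2:72356367-72375167), which breaks down retinoic acid, had 14, 33 and 12 reads in vehicle and 48, 49 and 41 in TGFβ. The groups did not overlap, and vehicle culture 2 was the nearest to them. The log2 fold change was 1.13 (SE 0.35, edgeR FDR = 0.141), and with the block it was 1.19 (edgeR FDR = 0.0252). Of the 6 fits that left out 1 culture, only the fit without vehicle culture 2 passed (edgeR FDR = 0.0432). Over these 6 fits the log2 fold change was between 0.86 and 1.65, and the FDR reached 0.423 (edgeR). CYP26A1, the main retinoic acid hydroxylase of liver, had 8, 16 and 2 reads in vehicle and 8, 16 and 8 in TGFβ and was not tested, and CYP26C1 had no read.

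CYP20A1, whose substrate is unknown, was the next most abundant member of these families per length after CYP24A1, with 7.31, 8.89 and 9.04 RPKM in vehicle and 7.60, 7.76 and 7.46 RPKM in TGFβ (log2 fold change -0.11, SE 0.09, edgeR FDR = 0.738). CYP21A2, which makes precursors of cortisol, had 47, 38 and 35 reads in vehicle and 42, 36 and 32 in TGFβ. Its CPM did not overlap, but the difference did not pass (log2 fold change -0.24, SE 0.24, edgeR FDR = 0.782), and 28% of its 51-base words also occur in the pseudogene CYP21A1P. CYP46A1, the brain cholesterol hydroxylase, had a log2 fold change of 0.13 (SE 0.45, edgeR FDR = 0.944). CYP39A1 and CYP27C1, which act on oxysterols and retinoids, had between 4 and 18 reads in a culture and were not tested.

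The share of P450 RNA from CYP24A1 was larger in all 3 TGFβ cultures than in vehicle. Summed over the 50 genes, RPKM was 117.9, 136.3 and 125.3 in vehicle and 141, 192.8 and 150.4 in TGFβ, so all TGFβ cultures were above all vehicle cultures. CYP24A1 made up 13.5, 20.2 and 12.7% of that sum in vehicle and 36.6, 46.0 and 33.6% in TGFβ. CYP1A1 made up 49.0, 50.1 and 54.7% in vehicle and 27.3, 31.6 and 39.6% in TGFβ. Families 1 to 3 summed to 80.9, 88.1 and 87.1 RPKM in vehicle and 64.8, 82.6 and 78.2 RPKM in TGFβ, with overlap between the groups. Family 4 summed to 11.2, 9.32 and 10.7 RPKM in vehicle and 13.8, 10.6 and 11.2 RPKM in TGFβ, also with overlap. The remaining families summed to 25.8, 38.9 and 27.5 RPKM in vehicle and 62.4, 99.6 and 61.0 RPKM in TGFβ. In TGFβ cultures 1 and 2 CYP24A1 was above CYP1A1 per length, and in TGFβ culture 3 it was below.

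**Figure D4:**
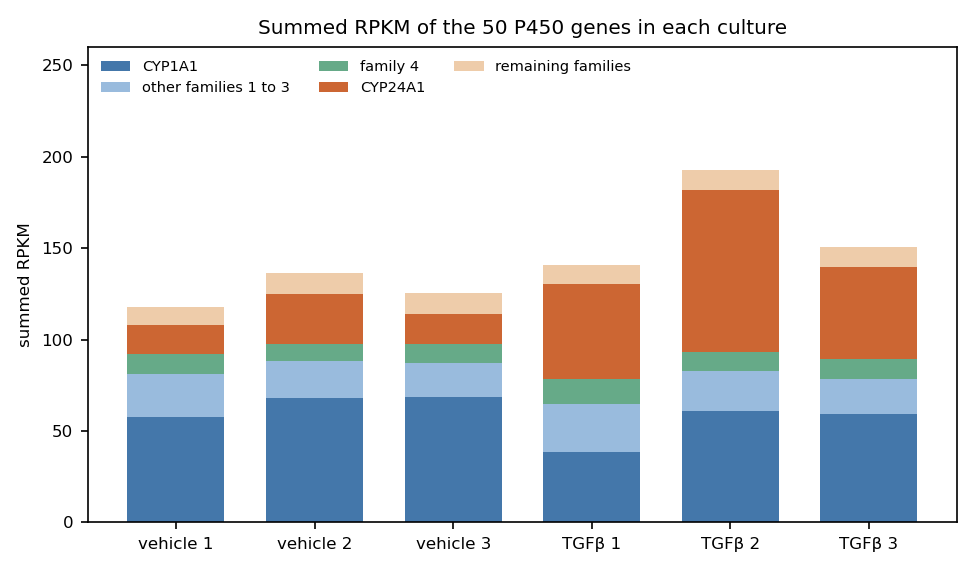
Summed RPKM of the 50 P450 genes in each culture, stacked as CYP1A1, the rest of families 1 to 3, family 4, CYP24A1 and the remaining families. CYP24A1 takes 12.7 to 20.2% in vehicle and 33.6 to 46.0% in TGFβ.

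The genes that serve P450 enzymes were followed in 7 lists. The lists were chosen with earlier results of these data known, so their shares are descriptive only. They held 98 tested genes. Of these, 6 rose and 4 fell (10.2%), where 4.12% of all tested genes were called in either direction. With the block 15 were higher and 15 lower (30.6%), where 11.8% of all tested genes were called in either direction. Among the 15 higher were UGT1A1, UGT1A3 and UGT1A9, which share exons and are not separate calls. The electron donors did not pass: of 9 tested redox partners, 0 rose and 0 fell (edgeR), with 1 at an unadjusted P below 0.05, which was lower, and 0 called by DESeq2. POR, the reductase of microsomal P450 enzymes, had 226, 183 and 200 CPM in vehicle and 241, 204 and 214 CPM in TGFβ (log2 fold change 0.11, SE 0.10, edgeR FDR = 0.73). CYB5A and CYB5B, the cytochrome b5 electron carriers, passed with the block only, lower.

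A list of 18 genes held receptors for foreign compounds, calcitriol, bile acids and other ligands, with their partners and related regulators. Of these 18, 3 rose, namely VDR, ARNT and NR1I2, against 3.11% of all tested genes. With the block 7 were higher, RXRA, PPARG, NR3C1 and KEAP1 being added, and 3 were lower, namely NR1I3, PPARA and NR1H4. Of all tested genes, 8.08% were higher and 3.75% lower in that fit. ARNT, the partner of the dioxin receptor, had 42.4, 37.8 and 35.5 CPM in vehicle and 53.2, 50.4 and 48.6 CPM in TGFβ, without overlap (log2 fold change 0.40, edgeR FDR = 0.0305). AHR, the dioxin receptor itself, had a log2 fold change of -0.12 (edgeR FDR = 0.7). NR1I2, the pregnane receptor that induces CYP3A genes, had 22.4, 19.0 and 21.4 CPM in vehicle and 27.5, 27.9 and 26.4 CPM in TGFβ, without overlap (log2 fold change 0.38, edgeR FDR = 0.0386). The ARNT call was lost in 4 and the NR1I2 call in 5 of the 6 fits that left out 1 culture. NR1I3, the related receptor that induces CYP2B6, had a log2 fold change of -0.39 (edgeR FDR = 0.139), and with the block an FDR of 0.018 (edgeR). NR1H4, the bile acid receptor, had a log2 fold change of -0.44 (edgeR FDR = 0.0613), and DESeq2 also called it lower (DESeq2 FDR = 0.0119). None of the 7 other target genes of the dioxin receptor passed with edgeR, DESeq2 or the block, and at an unadjusted P below 0.05 there was 1 higher and 0 lower (edgeR).

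**Figure D5:**
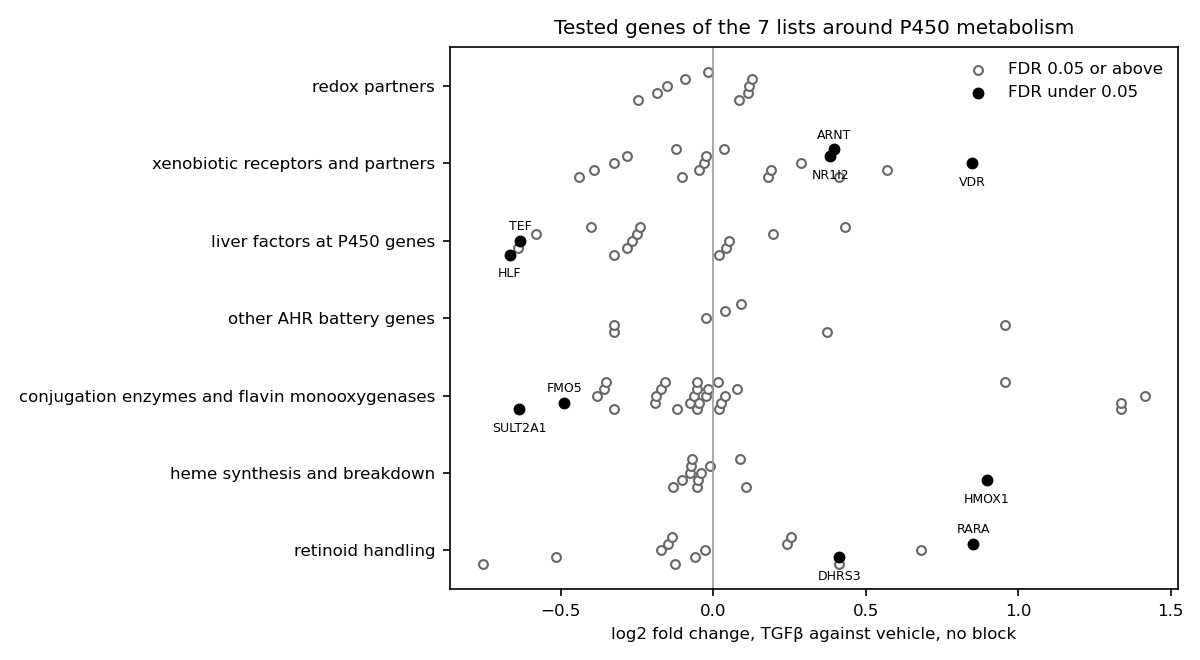
Log2 fold change of TGFβ against vehicle for the 98 tested genes of the 7 lists around P450 metabolism, with filled points for an FDR below 0.05. HLF, TEF, SULT2A1 and FMO5 lie left of 0, and VDR, ARNT, NR1I2, HMOX1, RARA and DHRS3 lie right of 0.

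Of 15 liver transcription factors that act at P450 genes, 2 fell, against 1.01% of all tested genes. With the block 7 were lower, among them FOXA3, CEBPD, ONECUT1 and NR0B2, against 3.75% of all tested genes. In that fit FOXA1 and CEBPA were higher, against 8.08% of all tested genes. HLF, a PAR bZIP factor, had 344, 353 and 359 CPM in vehicle and 240, 214 and 211 CPM in TGFβ. Every TGFβ culture was far below every vehicle culture, and HLF fell by 0.67 on the log2 scale (SE 0.07, edgeR FDR = 0.000888). Its relative TEF fell by 0.63 on the log2 scale (edgeR FDR = 0.0121), a call lost without vehicle culture 3 (edgeR FDR = 0.0573) or TGFβ culture 2 (edgeR FDR = 0.0562). HNF4A, a master regulator of hepatocyte genes, had a log2 fold change of 0.02 (edgeR FDR = 0.96). CEBPA, another, had one of 0.43 (edgeR FDR = 0.255), and with the block an FDR of 0.0105 (edgeR).

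Of 28 tested conjugation enzymes and flavin monooxygenases, which follow P450 enzymes or work beside them, 2 fell, against 1.01% of all tested genes. With the block 3 were lower, UGT2B10 being added, and 3 were higher, against 3.75% and 8.08% of all tested genes. The higher genes were UGT1A1, UGT1A3 and UGT1A9, glucuronosyltransferases that share exons, with log2 fold changes of 1.32 to 1.40 in that fit (edgeR FDR = 0.0182 to 0.0414), no overlap between the groups and 7 to 44 reads per culture. UGT1A3 had 9, 7 and 11 reads in vehicle and 36, 19 and 21 in TGFβ. UGT1A9 had nearly the same, 9, 7 and 9 in vehicle and 36, 17 and 21 in TGFβ. The rows of these 3 genes end at nearly the same base, so their calls may rest on the same reads and are not separate. SULT2A1, which sulfates steroids and bile acids, had 113, 121 and 109 CPM in vehicle and 76.5, 69.0 and 75.2 CPM in TGFβ, without overlap (log2 fold change -0.64, SE 0.08, edgeR FDR = 0.00125). FMO5, a flavin monooxygenase, fell by 0.49 on the log2 scale (edgeR FDR = 0.0322), a call lost in 5 of the 6 fits that left out 1 culture. Of 12 genes of heme synthesis and breakdown, 1 rose and 0 fell, against 3.11% and 1.01% of all tested genes. The gene that rose was HMOX1, which opens the heme ring, with a log2 fold change of 0.90 (edgeR FDR = 0.0237). That call was lost in 3 of the 6 fits that left out 1 culture and without the filter on low reads (edgeR FDR = 0.352).

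Of 14 retinoid genes, 2 rose and 0 fell, against 3.11% and 1.01% of all tested genes. RARA, a receptor for retinoic acid, had 24.0, 22.8 and 24.5 CPM in vehicle and 42.7, 45.7 and 40.3 CPM in TGFβ. The groups were well apart, and RARA rose by a log2 fold change of 0.85 (SE 0.08, edgeR FDR = 0.000311). DHRS3, which reduces retinaldehyde, had 36.9, 37.9 and 36.6 CPM in vehicle and 47.5, 56.0 and 44.8 CPM in TGFβ (log2 fold change 0.41, edgeR FDR = 0.0342). The DHRS3 call was lost in 5 of the 6 fits that left out 1 culture and with scaling by total count (edgeR FDR = 0.0629).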

How the data were processed

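RNA from HepG2 cells treated with TGFβ (3 cultures) or vehicle (3 cultures) was sequenced as paired reads. The authors aligned reads to hg19 with TopHat2 2.0.6, per the labels, and deposited whole-number read counts per gene, from HTSeq in the MAPRseq workflow, without normalization. The authors also deposited RPKM values, which were used for levels between genes only. How strand and overlapping genes were treated in counting is not given in the sources used here. Groups and culture numbers were taken from the sample labels.

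The main test was edgeR 4.0.16, with R 4.3.3 and limma 3.58.1, using TMM scaling, filterByExpr, the robust quasi-likelihood test and Benjamini-Hochberg adjustment (FDR) over 22747 genes. CPM are counts scaled to the TMM-adjusted library size. Pairing by culture number was checked on deviations from group means: correlations were 0.366, 0.227 and 0.316 for the same number and at most 0.0101 otherwise, so the blocked value is given where it changed a call. Cultures 3 of the groups were run on different lanes and the others shared a lane by number, per the labels. DESeq2 1.42.0 was an alternative. Cultures of a group differed by more than counting noise. The steps were tested on simulated data. Ratios of reads were compared with exact permutation tests in scipy 1.17.1, which give at least 0.1 here. Shared 51-base words were counted in GRCh37 exons, and identities come from Biopython 1.88 alignments.

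Genes named were P450 genes and list genes past an FDR of 0.05 with or without the block, the 6 most abundant P450 genes of each family group, P450 genes without reads, and widely known members and regulators. Some genes outside this rule were named after their values were seen. Some genes that were examined are left out of the text. The members and lists were chosen with earlier results of these data known.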

Additional observations from a re-analysis of the deposited data

How the results depend on the processing

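With the culture number as a replicate block, 8 P450 genes were called in place of 4, where 11.8% of all tested genes were called in place of 4.12%. Of these P450 genes 3 were lower in place of 0, where 3.75% of all tested genes were lower in place of 1.01%. Leaving out 1 culture at a time gave 2 to 5 called P450 genes, all higher, with 2 without vehicle culture 3. In the 7 lists around P450 metabolism, 30 genes were called with the block in place of 10, 15 higher in place of 6 and 15 lower in place of 4, against 8.08% higher and 3.75% lower of all tested genes with the block. Leaving out 1 culture gave 4 to 7 calls there, 2 to 3 higher and 2 to 4 lower. DESeq2 called 7 lower. With cultures 1 and 2 of each group only, an alternative added after the data were seen, 3 list genes were called, 1 higher and 2 lower, and CYP4F3 had an FDR of 0.0831 (edgeR). No gene called in either of the fits compared changed sign, but 11 named genes that were called in neither did so under at least 1 alternative, with values from -0.23 to 0.29. DESeq2's size factors changed none of the 69 named genes' calls, and scaling by total count changed 2. The cause of these changes was not tested, and the fits that left out cultures also had fewer of them. Depth limits the 22 P450 genes with at most 59 reads, which were not tested.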

Other observations

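Pseudogenes and antisense RNAs with P450 names, which the choice of members left out, made up 52 rows, of which 21 had no read and 9 were tested. Of these 9, 0 passed an FDR of 0.05 with edgeR, with the block or with DESeq2, and 1 was lower at an unadjusted P below 0.05 (edgeR). CYP51A1P2 had the most reads, 184, 243 and 165 in vehicle and 151, 129 and 241 in TGFβ, with overlap between the groups (log2 fold change -0.26, SE 0.29, edgeR FDR = 0.816). CYP4F24P, a pseudogene of the CYP4F cluster, had 67, 35 and 40 reads in vehicle and 78, 40 and 45 in TGFβ (log2 fold change 0.08, SE 0.29, edgeR FDR = 0.952).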
